A study of Mus musculus with 9 samples.

Results

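The Rab GTPases are the largest branch of the Ras superfamily of small GTP-binding proteins. The members were taken as the rows of the deposited expression table whose gene name is Rab, a number and at most 1 letter, so adaptors and effectors such as the Rab11 family-interacting proteins did not count. The rule found 59 of 21899 genes. The study measured polyadenylated RNA by RNA-seq in N2a cells (Neuro-2a), a mouse neuroblastoma line, to follow what Arf1 does in lipid metabolism. Arf1 is itself a small GTPase, which recruits coat proteins to Golgi membranes. The 9 libraries fell into 3 groups of 3, all of them N2a cells without a further treatment that carried a hairpin in the same lentiviral vector. The control, shlucif, targets luciferase, which mouse cells do not encode, and shArf1-1 and shArf1-2 are separate hairpins against Arf1, called Arf1-deficient together. The model is 1 cell line, and both hairpins lower Arf1 rather than delete it. The sources do not say whether the 3 libraries of a group came from separate cultures, so p-values measure only the spread between these libraries, which may be technical.

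A Rab protein works as a switch on the membrane of an organelle. An exchange factor loads it with GTP, the loaded form recruits effectors such as tethers and motor adaptors, and a GTPase-activating protein turns it off, after which it is extracted from the membrane for another round. Each compartment carries its own set, with Rab1 and Rab2 between the endoplasmic reticulum (ER) and the Golgi, Rab6 on the Golgi, Rab5 on early endosomes, Rab4, Rab11 and Rab35 on recycling routes, Rab7 and Rab9 on late endosomes, and Rab3 and Rab27 on secretory vesicles. Neurons use these routes for axonal transport and for the release and recycling of synaptic vesicles.

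The hairpin sequences, taken from the study's primer list, show what was targeted, and the target strand of each is given with the guide strand it makes. Capitals mark the seed, bases 2 to 8 of the guide, which pairs with messenger RNAs.
shArf1-1 target: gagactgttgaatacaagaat
shArf1-1 guide: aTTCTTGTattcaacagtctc
shArf1-2 target: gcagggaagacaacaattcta
shArf1-2 guide: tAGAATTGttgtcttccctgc
The shArf1-1 target lies in exon 3 of Arf1 (chr11:59213222-59213242, GRCm38, minus strand) and the shArf1-2 target in exon 2 (chr11:59213386-59213406), both in the coding sequence by GENCODE M21. The 21 bases were found in 0 Rab genes, and outside Arf1 in AC127331.2 and, for shArf1-2, in Gm19587. Arf1 itself stood at 328, 316 and 328 FPKM (counts scaled to gene length and library total) with shlucif, at 130.3, 128 and 127 FPKM with shArf1-1, and at 166, 157 and 171 FPKM with shArf1-2. All 6 Arf1-deficient libraries lay below the control. Arf1 fell by 1.21 on the log2 scale (SE 0.09, edgeR adjusted p = 6.05e-08) in the comparison of 6 with 3 libraries, to 0.433 of the control.

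The library totals ran from 11182479 to 15594615 counts, and 12448 genes had enough counts to be tested. Of the Rab members, 46 were tested. The labelled cell type showed in its markers, since all 13 sympathoadrenal and neuronal markers had over 3 counts in every library. Th stood at only 12 to 19 counts per library. Of the 13, 11 rose and 1 fell in Arf1-deficient cells. Over all tested genes 31.6% were higher and 32.9% lower. Of 3 tested fibroblast markers 1 fell. Of 14 tested macrophage and microglia markers 13 fell and 1, Mrc1, rose. The 13 that fell had enough counts to be tested only through the shlucif libraries, and Mrc1 only through the Arf1-deficient libraries. These calls are therefore given as values and are no added support. The 18 markers of that list summed to between 285.5 and 343 CPM (counts scaled to the library total) with shlucif, to 1.42 to 2.53 with shArf1-1 and to 2.02 to 2.79 with shArf1-2. In all control libraries 13 of them reached 10 counts, and 10 of these 13 had at most 3 counts in every Arf1-deficient library. The markers Aif1, C1qa, C1qb, C1qc, Ctss, Cx3cr1, Itgam, P2ry12 and Spi1 were at 0 in all 6 Arf1-deficient libraries. In bulk RNA, fewer cells of a type and less RNA per cell cannot be told apart. This signal differed between the groups and is given beside the Rab genes that fell most.

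As a family, the summed level of Rab transcripts overlapped between the 3 groups. Their summed FPKM was 844.6 ± 12.8 in the control, 853.8 ± 19.6 for shArf1-1 and 827.9 ± 17.9 for shArf1-2 (SD, n = 3 each), with ranges of 834.4 to 859, 831.3 to 867.4 and 807.4 to 840.3. In shlucif libraries a few members made up most of that sum, and the 10 highest held 61.2% of it. Only Rab5c, an early endosome Rab, exceeded 100 FPKM, 3 members lay between 50 and 100, 21 between 10 and 50, 18 between 1 and 10, and 16 below 1 FPKM.

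Per length, the order in shlucif ran from Rab5c through Rab1a, Rab7, Rab2a, Rab1b, Rab6a, Rab5b, Rab10, Rab11a and Rab31. Rab5c was at 112, 99.5 and 102 FPKM with shlucif, 111, 111 and 104 with shArf1-1 and 108, 94.8 and 109.6 with shArf1-2. Rab1a, which acts between ER and Golgi, was at 73.1, 76.0 and 77.9 FPKM in the control, 74.5, 67.3 and 74.8 with shArf1-1 and 71.1, 66.0 and 68.1 with shArf1-2. The main Rab of late endosomes, Rab7, was at 73.8, 73.0 and 74.6 FPKM with shlucif, at 79.9, 69.6 and 78.9 with shArf1-1 and at 69.8, 69.0 and 70.5 with shArf1-2. Rab5c stood above all other members in every library. Rab1a and Rab7 overlapped each other in the control, with 73.1 to 77.9 against 73.0 to 74.6 FPKM, so their order was not resolved there. Next came Rab2a, another ER to Golgi Rab, at 52.1, 56.6 and 58.5 FPKM with shlucif, 68.7, 61.5 and 73.4 with shArf1-1 and 61.9, 62.0 and 59.9 with shArf1-2. Rab10, which serves polarized delivery, had 32.7, 34.8 and 34.1 FPKM in the control, 40.1, 34.8 and 41.2 with shArf1-1 and 41.6, 33.2 and 39.8 with shArf1-2. Rab11a, of the recycling endosome, had 28.0, 31.2 and 30.8 FPKM in the control, 29.6, 28.9 and 29.4 with shArf1-1 and 31.4, 28.6 and 30.5 with shArf1-2. The Rab2a libraries lay clear of both neighbours in the control order, whereas Rab6a overlapped Rab1b, Rab5b and Rab10 there.

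Between Arf1-deficient and control cells, 22 of the 46 tested members passed the test (47.8%), 8 of them higher and 14 lower. Over all tested genes the shares were 64.5% in either direction, 31.6% higher and 32.9% lower, and the difference between these shares was not tested. The median log2 fold change was -0.065 over the tested members and 0.003 over all tested genes. Falls of at least 1 on the log2 scale came from 4 members, against a background of 9.33% of tested genes, and 0 tested members rose by that much, against 4.68%. Rab7b, Rab29 and Rab20, among these 4 and among the 14 lower, passed the filter on low counts only through the shlucif libraries. Their falls are no added support. The split depended on the scaling, and with library size in place of TMM 24 members passed, 12 higher and 12 lower.

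Each hairpin was also set against the same 3 shlucif libraries, so the results of both share their control. With shArf1-1, 26 members passed, 10 higher and 16 lower, against 67.5%, 33.1% and 34.4% of tested genes. With shArf1-2, 26 passed, 8 higher and 18 lower, against 63.4%, 30.9% and 32.6%. Library size scaling gave 12 higher and 13 lower with shArf1-1 and 10 higher and 13 lower with shArf1-2. The 22 members of the 6 against 3 comparison passed with each hairpin alone in the same direction, as 56.3% of tested genes did. Rab2a, Rab11b, Rab14 and Rab40c passed with shArf1-1 alone, and Rab3c, Rab6a, Rab7 and Rab44 with shArf1-2 alone. The FPKM of all 6 Arf1-deficient libraries lay above all control libraries for 10 members and below them for 9, against 32.5% and 26.7% of tested genes. Rab7b, Rab29 and Rab20, which passed the filter only through the shlucif libraries, are among the 22 and among these 9.

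**Figure D1:**
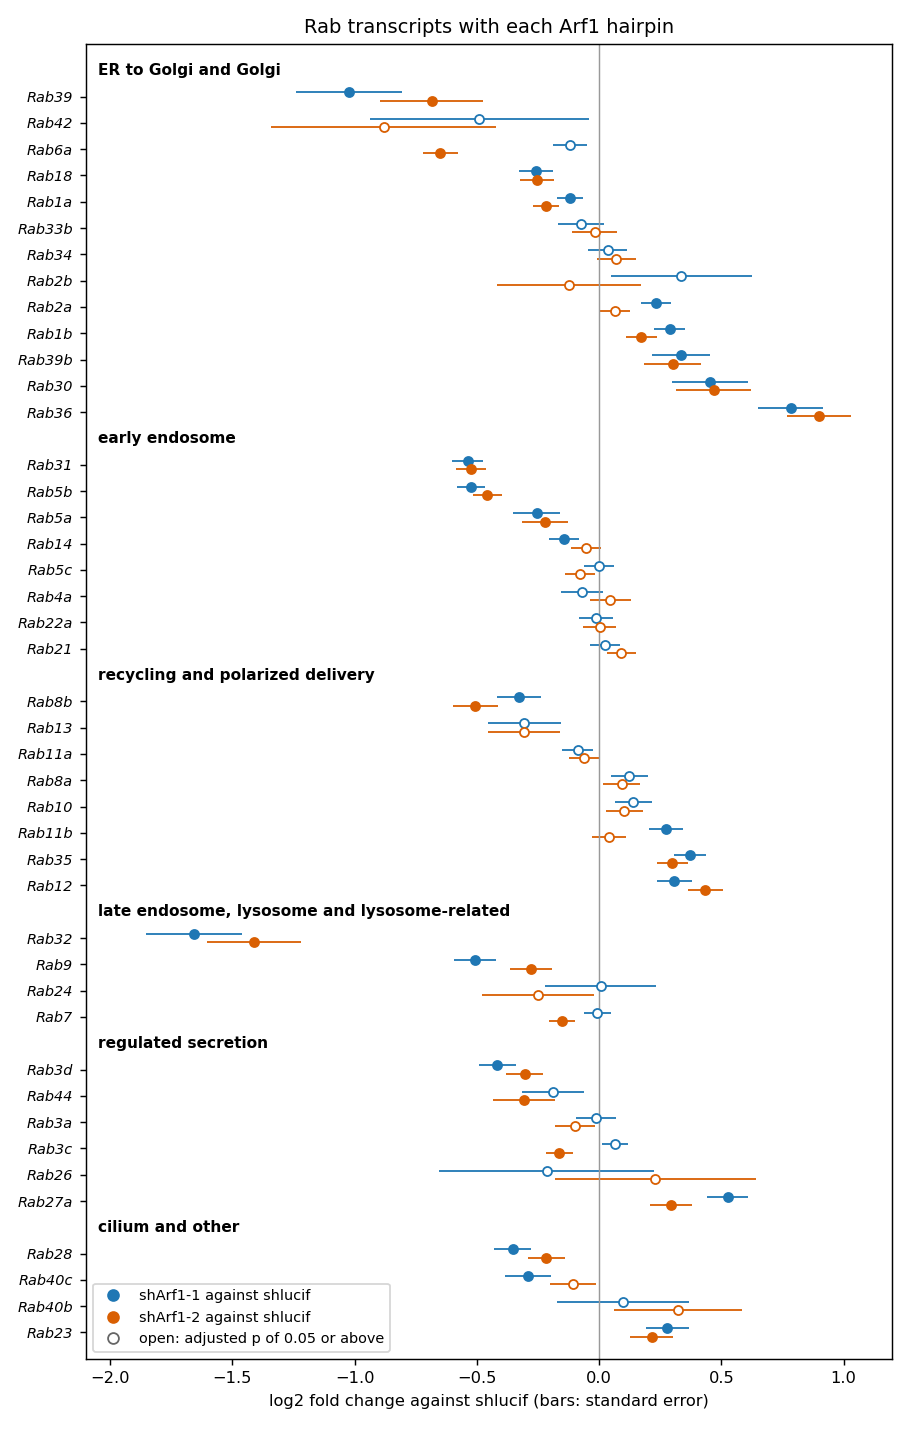
Log2 fold change against shlucif (x axis) of 43 tested Rab members, in rows by the compartment they are known for, with shArf1-1 in blue, shArf1-2 in orange, bars for the standard error and open circles for an adjusted p of 0.05 or above. Rab32 lies farthest to the left and Rab36 farthest to the right with both hairpins, and Rab7b, Rab29 and Rab20, which were at or near 0 counts, are left out.

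The late endosome and lysosome group had 6 tested members, of which 4 fell and none rose, against 32.9% and 31.6% of all tested genes. Rab7b and Rab29, at or near 0 counts in Arf1-deficient cells, are among these 4. Rab7b, which returns cargo from endosomes to the trans-Golgi network, had 117, 89 and 79 counts with shlucif and 0 in all 6 Arf1-deficient libraries. Against a floor of 3 counts over the 6 libraries together, that is at least 190-fold lower. Rab7b, Rab29 and Rab20 passed the filter on low counts only through the shlucif libraries, so their changes are given as values and their p is no added support. Rab29, a trans-Golgi and lysosomal Rab that binds the kinase LRRK2, had 16, 31 and 22 counts in the control, 0, 0 and 0 with shArf1-1 and 0, 1 and 2 with shArf1-2. The control libraries held 46 times the Arf1-deficient level for Rab29, with a 95% interval from counting error alone of 15.1 to 228 (exact binomial method). Rab32, needed for lysosome-related organelles, had 187, 141 and 113 counts in the control, 35, 43 and 62 with shArf1-1 and 61, 61 and 58 with shArf1-2. It fell by 1.53 on the log2 scale (SE 0.17, edgeR adjusted p = 3.12e-07), and its FPKM in the control, 3.54 to 5.80, did not overlap that of the Arf1-deficient libraries.

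A similar fall came from the early endosome group. Rab20, a Rab of endosomes and phagosomes, had 31, 23 and 28 counts with shlucif, 5, 3 and 4 with shArf1-1 and 4, 0 and 3 with shArf1-2. The control level was 8.63 times the Arf1-deficient one, with a 95% counting interval of 5.19 to 15.1. Intervals and floors here cover counting error only. The marker sum was 343, 303.8 and 285.5 CPM in the shlucif libraries and at most 2.79 CPM in the Arf1-deficient libraries. Rab32 kept 35 to 62 counts there, at 0.347 of the control. The macrophage and microglia markers fell in the same comparison as these 4 members, Rab7b, Rab29, Rab32 and Rab20. So did 32.9% of tested genes, with 9.33% of tested genes lower by at least 1 on the log2 scale. The part of those markers in these results was not tested.

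**Figure D2:**
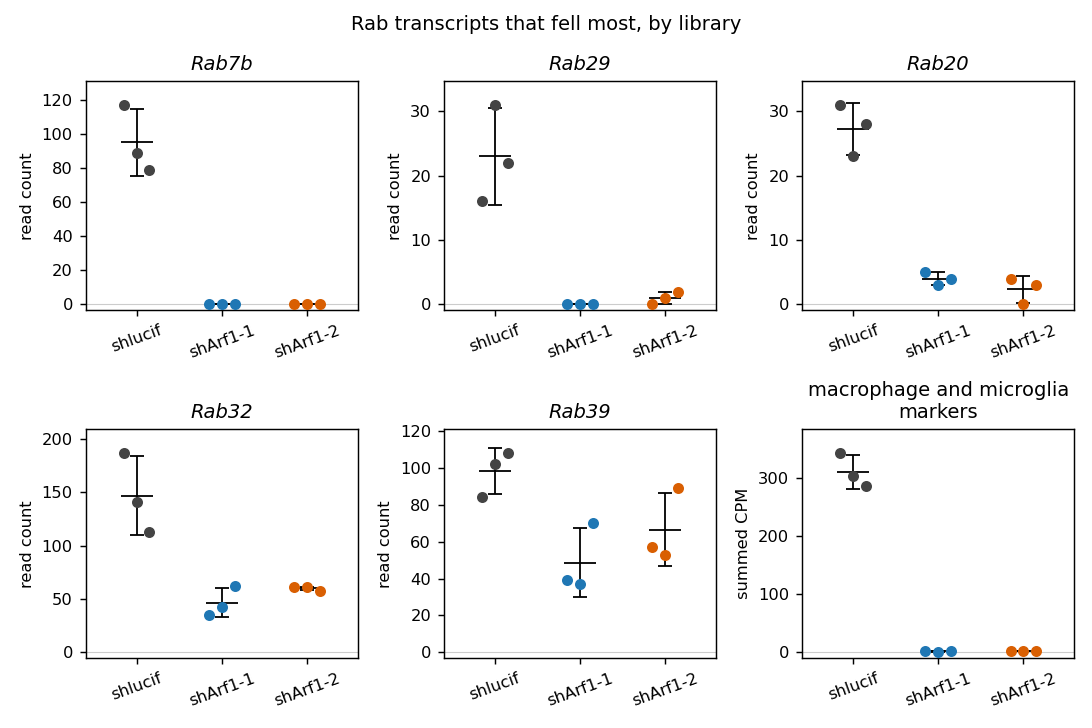
Read counts (y axis) of Rab7b, Rab29, Rab20, Rab32 and Rab39 in the 3 shlucif, 3 shArf1-1 and 3 shArf1-2 libraries, with the summed CPM of 18 macrophage and microglia markers in the last panel. Points are libraries, and lines and bars give the mean and SD. Rab7b is at 0 in all Arf1-deficient libraries and the marker sum is at most 2.79 CPM there, whereas Rab39 keeps 37 counts or more.

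These members sit on several chromosomes of GRCm38. Rab7b (chr1:131688695-131715439) and Rab29 (chr1:131867224-131872887) lie on the plus strand of chromosome 1 with 151784 bases between them, Rab20 on chromosome 8 and Rab32 on chromosome 10. Of 3 genes of the table between Rab7b and Rab29, Slc26a9 and Pm20d1 had 0 counts in all 9 libraries. Slc41a1, a magnesium transporter beside Rab29 that was chosen after its values were seen, had 484, 546 and 506 counts with shlucif, 282, 281 and 331 with shArf1-1, and 415, 358 and 382 with shArf1-2. Slc41a1 fell by 0.65 on the log2 scale (edgeR adjusted p = 5.1e-06).

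Since these members fell together, the 250 bases before the RefSeq start of each gene (GRCm38.p6) were searched on both strands for 4 motifs, the E-box CACGTG, the ETS motif GAGGAAGT of the kind that PU.1 binds, the CRE TGACGTCA, and ACGTGGC, which can overlap an E-box. The 30 bases around the match in Rab32, Rab20 and Rab29 are shown 5′ to 3′ along the gene, with the motif in capitals.
Rab32, chr10:10558232-10558261, minus strand: tagccagggaaGAGGAAGTgccgggaccag
Rab20, chr8:11478669-11478698, minus strand: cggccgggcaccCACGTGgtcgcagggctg
Rab29, chr1:131867132-131867161, plus strand: cccaagagtgtACGTGGCaagtcgccacac
The matches began 43, 46 and 134 bases before the RefSeq start, and those of Rab32 and Rab20 lie inside the gene as GENCODE M21 draws it. Of 32851 promoter windows, 60 belonged to 48 of the 59 Rab members. The ETS motif stood in 3.33% of Rab windows, in Rab32 and Rab2b, and in 2.44% of all windows. The E-box stood in 8.33% of Rab windows (Rab5a, Rab20, Rab21, Rab23 and Rab27a) and 6.02% of all. The CRE was in 3.33% of Rab windows (Rab5a and Rab25) against 1.55%, and ACGTGGC in 3.33% (Rab24 and Rab29) against 2.02%. Rab7b had no window and was not searched. In these windows Rab32, Rab20 and Rab29 matched different motifs, and the share of windows with any of the 4 motifs was not counted. Of the members with the E-box, Rab20 and Rab5a fell, Rab23 and Rab27a rose, and Rab21 did not pass. A match is a run of letters, not a site of binding.

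The other tested late endosome members moved less. Rab9, which returns mannose 6-phosphate receptors from late endosomes to the Golgi, was at 24.9, 26.1 and 28.8 FPKM with shlucif, 20.4, 17.5 and 20.2 with shArf1-1 and 21.5, 22.2 and 25.4 with shArf1-2. It fell by 0.39 on the log2 scale (SE 0.09, edgeR adjusted p = 0.00116), although its highest Arf1-deficient library, at 25.4 FPKM, overlapped the control. Rab7 did not pass, at -0.08 (SE 0.06, edgeR adjusted p = 0.254) in the comparison of 6 with 3. With shArf1-2 alone Rab7 fell by 0.15 on the log2 scale (SE 0.06, edgeR adjusted p = 0.0166). Of the annotated 50-base windows of Rab7, 11.2% also occur in another gene, among them its pseudogene Rab7-ps1, so reads from these cannot be told apart. Rab24, an autophagy Rab, stood at 41 to 71 counts and did not pass, and it overlaps Prelid1 on the opposite strand by 1258 exon bases.

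Of 9 tested early endosome members, 4 fell and none rose, against 32.9% and 31.6% of all tested genes. Rab20 is among these 4 and passed the filter on low counts only through the shlucif libraries, so its fall is no added support. Rab5b, 1 of 3 Rab5 paralogs that drive early endosome fusion, was at 37.2, 36.5 and 36.7 FPKM with shlucif, 26.3, 25.8 and 27.5 with shArf1-1 and 29.2, 26.6 and 28.6 with shArf1-2. It fell by 0.49 on the log2 scale (SE 0.05, edgeR adjusted p = 2.09e-07), a fall of 28.8%, and the groups did not overlap. Rab31, which carries cargo between the trans-Golgi network and endosomes, was at 27.3, 27.0 and 26.2 FPKM in the control, 18.7, 19.7 and 19.2 with shArf1-1 and 19.98, 19.7 and 19.2 with shArf1-2. It fell by 0.53 on the log2 scale (SE 0.05, edgeR adjusted p = 7.46e-08), a fall of 30.8%, again with no overlap. Both hairpins gave nearly the same size for Rab31, -0.54 and -0.52. Rab20 was the third, and Rab5a was the fourth, which fell by 0.24 on the log2 scale (SE 0.09, edgeR adjusted p = 0.0227). The Rab5a call did not hold with library size scaling or without shlucif library 2 or 3, where the change was -0.18, -0.23 and -0.15. Rab5c, Rab4a, Rab14, Rab21 and Rab22a did not pass, with log2 fold changes from -0.10 for Rab14 to 0.06 for Rab21. Rab4a, which also serves recycling routes, was counted in this group.

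The ER to Golgi and Golgi group was divided, with 4 of 13 tested members higher and 3 lower, against 31.6% and 32.9% of all tested genes. Rab36, a Golgi-associated Rab linked to the positioning of late endosomes, was the member that rose most, with 1.42, 1.27 and 1.48 FPKM in the control, 2.22, 2.95 and 2.33 with shArf1-1 and 2.89, 2.73 and 2.57 with shArf1-2. It rose by 0.84 on the log2 scale (SE 0.12, edgeR adjusted p = 7.46e-06), or 79.6%, and every Arf1-deficient library lay above every control library. Rab30, also of the Golgi, was low throughout, at 0.617, 0.736 and 0.631 FPKM with shlucif, 0.895, 0.853 and 1.06 with shArf1-1 and 0.934, 0.978 and 0.974 with shArf1-2. It rose by 0.46 on the log2 scale (SE 0.13, edgeR adjusted p = 0.00559). Rab1b, which with Rab1a moves cargo from ER to Golgi and helps recruit the exchange factor GBF1 that activates Arf1, was at 43.3, 39.9 and 41.6 FPKM in the control, 54.0, 56.8 and 47.8 with shArf1-1 and 50.1, 48.4 and 49.4 with shArf1-2. Rab1b rose by 0.23 on the log2 scale (SE 0.07, edgeR adjusted p = 0.00515), and its groups did not overlap. Rab1a moved the other way and fell by 0.17 on the log2 scale (SE 0.05, edgeR adjusted p = 0.0103), with overlap between the groups. That call was lost with library size scaling (-0.11) and without shlucif library 3 (-0.15).

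Rab39 and Rab39b, Golgi and endosome Rabs of which the second is mutated in an X-linked intellectual disability with parkinsonism, also parted. Rab39 was at 2.05, 2.57 and 2.67 FPKM with shlucif, 1.05, 1.11 and 1.51 with shArf1-1 and 1.31, 1.32 and 2.12 with shArf1-2, and 1 shArf1-2 library exceeded the lowest control. It fell by 0.84 on the log2 scale (SE 0.20, edgeR adjusted p = 0.00112). Rab39b was at 3.92, 4.20 and 3.88 FPKM in the control, 4.65, 4.92 and 6.05 with shArf1-1 and 5.01, 5.66 and 4.88 with shArf1-2. It rose by 0.32 on the log2 scale (SE 0.11, edgeR adjusted p = 0.014) with no overlap, and missed the threshold without shlucif library 3 (0.30, adjusted p = 0.0557 by edgeR). An antisense gene overlaps 634 exon bases of Rab39b, and the sources used here do not say whether counting used strand. Rab18, a Rab of the ER and of lipid droplets, fell as well, from 12.4 to 13.4 FPKM in the control to 9.83 to 11.9 in Arf1-deficient libraries. Its change was -0.26 (SE 0.07, edgeR adjusted p = 0.00227). Rab2a, Rab2b, Rab6a, Rab33b, Rab34 and Rab42 did not pass in the comparison of 6 with 3.

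Among 8 tested members of recycling and polarized delivery, 2 rose and 1 fell, against 31.6% and 32.9% of all tested genes. Rab35, which returns receptors from endosomes to the plasma membrane, was at 25.1, 22.9 and 25.0 FPKM with shlucif, 32.1, 34.5 and 31.8 with shArf1-1 and 31.8, 31.7 and 31.1 with shArf1-2. It rose by 0.34 on the log2 scale (SE 0.06, edgeR adjusted p = 0.000102), or 26.3%. Rab12, an endosomal Rab and a substrate of LRRK2, was at 15.8, 16.8 and 17.9 FPKM in the control, 22.1, 20.3 and 22.5 with shArf1-1 and 24.0, 23.0 and 24.8 with shArf1-2. It rose by 0.37 on the log2 scale (SE 0.07, edgeR adjusted p = 0.000165). For both, every Arf1-deficient library lay above every control library. Rab8b, of transport to the plasma membrane and cilium, was at 6.99, 8.90 and 7.35 FPKM with shlucif, 6.58, 6.10 and 6.48 with shArf1-1 and 5.52, 5.93 and 5.73 with shArf1-2. It fell by 0.42 on the log2 scale (SE 0.09, edgeR adjusted p = 0.000426) with no overlap. Rab8a, Rab10, Rab11a, Rab11b and Rab13 did not pass, with log2 fold changes from -0.31 for Rab13 to 0.16 for Rab11b.

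In regulated secretion, 1 of 6 tested members rose and 1 fell, against 31.6% and 32.9% of all tested genes. Rab27a, which docks lysosome-related and exosome-releasing vesicles at the plasma membrane, was at 7.07, 6.93 and 7.07 FPKM in the control, 10.03, 11.1 and 10.4 with shArf1-1 and 9.09, 8.62 and 9.43 with shArf1-2. It rose by 0.41 on the log2 scale (SE 0.09, edgeR adjusted p = 0.000513), or 33.2%, and the groups did not overlap. Rab3d, of the Rab3 family that controls vesicle exocytosis, was at 18.5, 16.1 and 16.1 FPKM with shlucif, 13.9, 13.7 and 12 with shArf1-1 and 13.8, 14.3 and 15.1 with shArf1-2. It fell by 0.36 on the log2 scale (SE 0.07, edgeR adjusted p = 0.000357), also without overlap. The synaptic vesicle Rab Rab3a had the value -0.06 (SE 0.08, edgeR adjusted p = 0.549) and did not pass, nor did Rab3c, Rab26 and Rab44.

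The last 4 tested members are known for the cilium or have no settled place. Rab23, a brake on Hedgehog signalling, was at 3.05, 3.35 and 3.21 FPKM with shlucif, 3.77, 3.92 and 4.38 with shArf1-1 and 3.79, 3.90 and 4.03 with shArf1-2. It rose by 0.25 on the log2 scale (SE 0.08, edgeR adjusted p = 0.0113) with no overlap, and missed the threshold without shlucif library 1 (0.22, adjusted p = 0.0563 by edgeR). Rab28, a cilium Rab, ran from 12.3 to 15.1 FPKM in the control and from 10.4 to 12.9 in Arf1-deficient libraries. It fell by 0.28 on the log2 scale (SE 0.08, edgeR adjusted p = 0.00311), and missed the threshold without shlucif library 3 (-0.20, adjusted p = 0.0536 by edgeR). Rab40b and Rab40c, which join ubiquitin ligase complexes, did not pass.

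**Figure D3:**
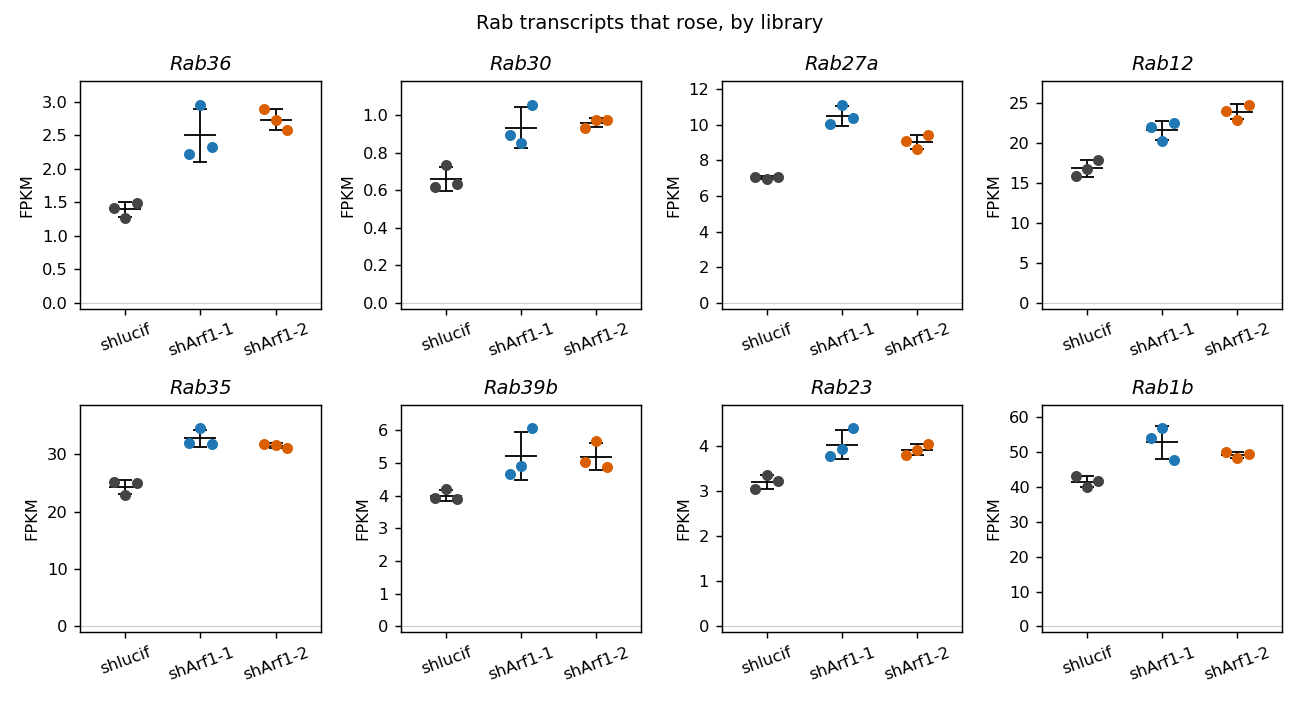
FPKM (y axis) of the 8 Rab members that rose, in 3 shlucif, 3 shArf1-1 and 3 shArf1-2 libraries, with points for libraries and lines and bars for the mean and SD. In each panel all 6 Arf1-deficient libraries lie above the 3 shlucif libraries, and Rab36 has the largest rise, from 1.27 to 1.48 FPKM in the control to between 2.22 and 2.95 in Arf1-deficient libraries.

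Because paralogs can stand in for each other, the share of each in the summed FPKM of its set was computed. These shares were not tested. Rab1a made up 64.5% ± 1.52 of the Rab1 sum with shlucif, 57.8% ± 3.41 with shArf1-1 and 58.1% ± 0.494 with shArf1-2 (SD, n = 3 each), and the groups did not overlap. Within Rab5, Rab5b went from 23.8% ± 0.592 to 18.1% ± 0.855 and 19.5% ± 0.413, while Rab5c went from 67.4% ± 1.8 to 73.9% ± 1.83 and 72.0% ± 1.08. The Rab5c level itself did not pass the test, so its share was larger beside lower levels of Rab5b. Rab39 held 37.7% ± 3.21 of its set in the control, 19.0% ± 0.892 with shArf1-1 and 23.3% ± 6.07 with shArf1-2. Rab8b held 42.5% ± 3.86, 35.1% ± 2.47 and 32.9% ± 1.61 of the Rab8 sum. For none of these paralogs did an Arf1-deficient library reach the range of the control. Rab7b, which fell to 0, held only 2.00% of the Rab7 sum in the control. Over all 6 Arf1-deficient libraries, the shares of the Rab2, Rab3, Rab4, Rab11, Rab33 and Rab40 paralogs overlapped those of the control. With shArf1-1 alone, Rab11a held 67.9% to 71.0% of the Rab11 sum against 73.4% to 75.9% in the control, and Rab3d 22.7% to 27.5% of the Rab3 sum against 30.3% to 33.3%.

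**Figure D4:**
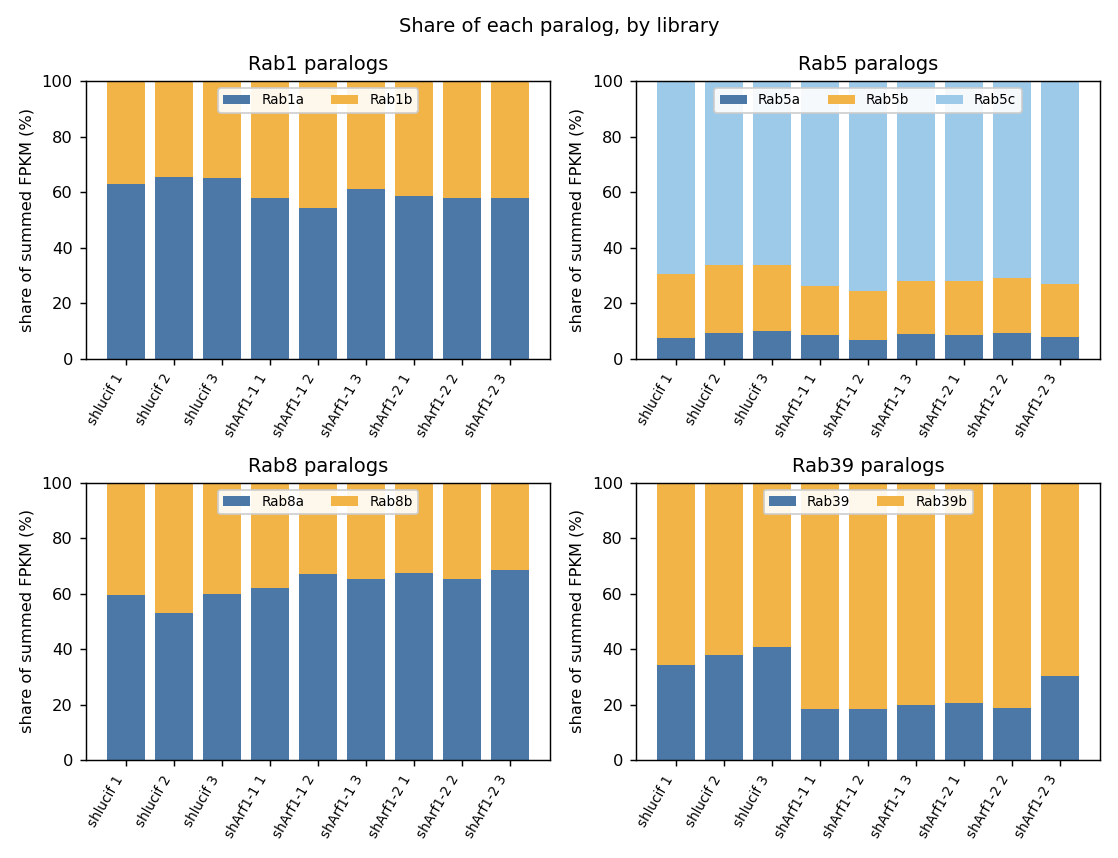
Share of each paralog in the summed FPKM of its set (y axis, percent) in each of the 9 libraries, for Rab1, Rab5, Rab8 and Rab39. Rab1a and Rab8b hold smaller shares in all 6 Arf1-deficient libraries than in shlucif, and Rab39 falls from between 34.3% and 40.7% to between 18.4% and 30.2%.

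The hairpins differed from each other in 3 of 46 members, against 14.4% of tested genes. All 3 were lower with shArf1-2, as 7.46% of tested genes were. Arf1 itself was lowered less with shArf1-2 than with shArf1-1, and the part of that in these differences was not tested. Rab6a, which drives retrograde traffic to and within the Golgi, was at 34.1, 39.7 and 41.2 FPKM with shlucif, 39.0, 32.0 and 38.7 with shArf1-1 and 25.6, 25.8 and 25.5 with shArf1-2. The shArf1-2 libraries lay together and below all others. Rab6a was lower with shArf1-2 than with shArf1-1, at -0.53 (SE 0.07, edgeR adjusted p = 4.41e-06). Against shlucif it changed by -0.12 (SE 0.07, edgeR adjusted p = 0.133) with shArf1-1 and -0.65 (SE 0.07, edgeR adjusted p = 3.2e-09) with shArf1-2. Rab6a shares 708 exon bases with Mrpl48 on the opposite strand. Mrpl48 differed between the hairpins by -0.15 (edgeR adjusted p = 0.308).

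The other two differences were smaller. Rab3c was at 17.9, 18.9 and 18.8 FPKM with shlucif, 19.6, 18.7 and 22.1 with shArf1-1 and 17.5, 17.9 and 16.9 with shArf1-2, and the hairpins did not overlap. Its difference was -0.23 (SE 0.06, edgeR adjusted p = 0.00412), and without shArf1-1 library 3 it was -0.16 (adjusted p = 0.0548 by edgeR). Rab11b, a close relative of Rab11a on recycling endosomes, was at 10.2, 9.92 and 10.2 FPKM with shlucif, 12.1, 13.6 and 12.3 with shArf1-1 and 11.1, 10.3 and 11.2 with shArf1-2, with no overlap between the hairpins. Its difference was -0.23 (SE 0.07, edgeR adjusted p = 0.0189). Without shArf1-1 library 2 or shArf1-2 library 2 it was -0.18 and -0.19, and the edgeR adjusted p was 0.0907 and 0.121. Of the 50-base windows of Rab11b, 9.47% also occur in other genes, the pseudogene Rab11b-ps2 among them.

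A guide can act on transcripts through its seed alone, so matches to the seeds in annotated 3′ untranslated regions were counted. A gene counted if any of its annotated transcripts held the match. The shArf1-2 match was present in 26.1% of tested Rab genes (12 of 46) and 9.36% of 12359 tested genes, and the shArf1-1 match in 6.52% (Rab7, Rab11b and Rab39) and 14.7%. The longest such region had a median of 1950 bases in tested Rab genes and 1181 in all tested genes, and the difference between the shares was not tested. Rab3c holds a shArf1-2 match in 2 of 3 annotated transcripts. Rab11b holds a shArf1-2 match and a shArf1-1 match, each in 1 of 3 transcripts. The matches are shown in capitals within their sites.
Rab3c, shArf1-2: aacccccacCAATTCTgaactc
Rab11b, shArf1-2: gtcctagtgCAATTCTctgtcc
Rab11b, shArf1-1: agaggtaaaACAAGAAagaccc
Rab6a, with the largest difference between the hairpins, holds neither match. Rab10, Rab23, Rab26, Rab29, Rab33b, Rab39, Rab3d, Rab44, Rab5b and Rab8b were the other tested members with the shArf1-2 match, of which Rab29, Rab39, Rab3d, Rab5b and Rab8b fell with both hairpins, Rab44 fell with shArf1-2 alone, Rab23 rose with both, and Rab10, Rab26 and Rab33b passed with neither. A match is a description of the sequence and not evidence of binding.

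**Figure D5:**
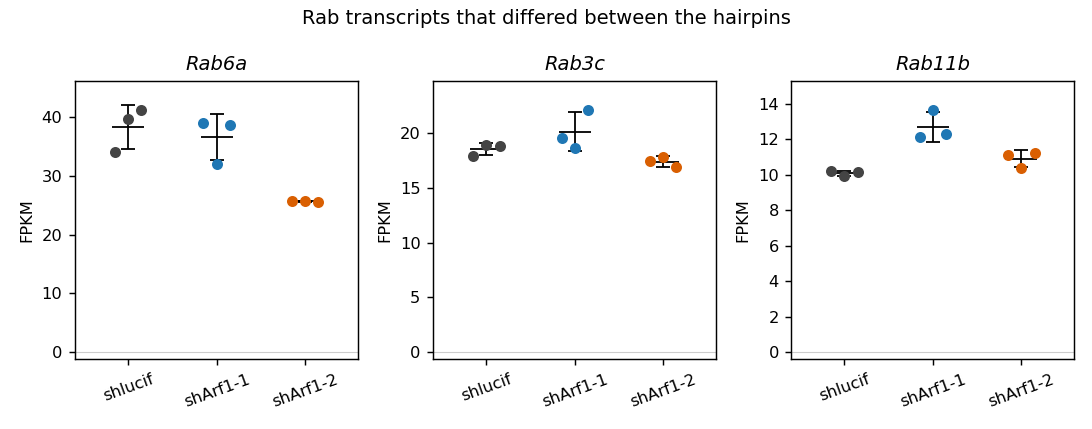
FPKM (y axis) of Rab6a, Rab3c and Rab11b in 3 shlucif, 3 shArf1-1 and 3 shArf1-2 libraries, with points for libraries and lines and bars for the mean and SD. The shArf1-2 libraries of Rab6a lie between 25.5 and 25.8 FPKM, below all shlucif and shArf1-1 libraries, and Rab11b is highest with shArf1-1.

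The 13 members not tested had at most 13 counts in any library. Rab17, Rab27b and Rab38 had 0 counts in all 9 libraries. From counting error alone, the 95% upper bound on the expected count of each gene is 3 over the 9 libraries together. Rab3b, Rab4b, Rab6b, Rab9b, Rab15, Rab19, Rab25, Rab33a, Rab37 and Rab43 made up the rest. Of the 50-base windows of Rab43, 74.5% also occur in Gm45140. For Rab4b 58.1% also occur in other genes, Gm21983 among them. Gm45140 and Gm21983 had 0 counts in all 9 libraries. How shared reads were counted is not given, so the levels and ratios of Rab43 and Rab4b are uncertain. The 95% counting interval of the ratio of Arf1-deficient to control level left out 1 for 5 of them, Rab4b, Rab6b, Rab9b, Rab19 and Rab37, chosen after their values were seen. Rab6b, the neuronal partner of Rab6a, had 4, 4 and 3 counts with shlucif, 0, 1 and 0 with shArf1-1 and 0 in each shArf1-2 library. Rab9b, the partner of Rab9, had 1, 2 and 1 counts with shlucif, 7, 6 and 8 with shArf1-1 and 10, 7 and 7 with shArf1-2. For Rab9b the ratio was 5.63, with an interval of 2.05 to 21.5, and for Rab6b it was 0.0455 (0.00106 to 0.313). Rab19 stood at 0.182 (0.0422 to 0.614), Rab37 at 0.443 (0.264 to 0.74) and Rab4b at 0.393 (0.161 to 0.932). When no filter on low counts was used, the edgeR adjusted p was 0.0055 for Rab9b, 0.00268 for Rab6b, 0.0303 for Rab19, 0.0521 for Rab37 and 0.18 for Rab4b.

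Of the genes that load, unload or read Rab proteins, 145 listed names were in the table and 131 were tested. The test was passed by 87 of them (66.4%), 33 higher and 54 lower, close to the 64.5% of all tested genes. Among the 87 are Tbc1d2b, Dennd1c, Rin2, Rin3 and Sytl3, which passed the filter on low counts through only 1 side of the comparison. Escort and prenylation genes, which attach the lipid anchor and shuttle Rabs, had 1 of 8 higher and 4 lower. Exchange factors had 7 of 43 higher and 19 lower, GTPase-activating proteins 6 of 34 higher and 16 lower, and effectors 19 of 46 higher and 15 lower. Over all tested genes 31.6% were higher and 32.9% lower.

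Within the escort group, Rabggtb, the catalytic subunit of Rab geranylgeranyl transferase, was at 79.1 FPKM on average with shlucif, 51.9 with shArf1-1 and 51.6 with shArf1-2. It fell by 0.68 on the log2 scale (SE 0.05, edgeR adjusted p = 1.72e-09). Its partner subunit Rabggta did not pass, at 0.01 (SE 0.10). Gdi2, which extracts Rabs from membranes, fell by 0.25 (SE 0.06) and Chm, a Rab escort protein, by 0.36 (SE 0.11) on the log2 scale. Chml, the other escort protein, did not pass, at -0.06 (SE 0.12).

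Among the other regulators, those that fell most were close to 0 in Arf1-deficient cells. Tbc1d2b, a GTPase-activating protein, had 49, 34 and 30 counts with shlucif and 1 count in all 6 Arf1-deficient libraries together. The exchange factor Dennd1c had 16, 19 and 15 counts in the control and 1 in all Arf1-deficient libraries. Rin2 and Rin3, exchange factors for Rab5, had 70 to 86 and 19 to 35 counts in the control and at most 5 and 3 in any Arf1-deficient library. These 4 genes passed the filter on low counts only through the shlucif libraries, so their passing is no added support. The macrophage and microglia markers fell in the same comparison, as did 32.9% of tested genes, and their part in the result was not tested. Rab11fip5, a Rab11 effector, kept 163 counts or more and fell by 2.19 on the log2 scale (SE 0.07). On the other side, Bicd1, a dynein adaptor that binds Rab6, had 85, 70 and 80 counts with shlucif, 314, 242 and 371 with shArf1-1 and 304, 285 and 299 with shArf1-2, and rose by 1.89 (SE 0.12). Sytl3, a Rab27 effector, rose by 2.08 from at most 6 counts. Because Sytl3 passed the filter on low counts only through the Arf1-deficient libraries, this is given as a value without added support. Rab11fip4 rose by 1.07 (SE 0.30), Rims2, a Rab3 effector at the synapse, by 0.89 (SE 0.06), and Trappc2, of the TRAPP tethering complex, by 0.87 (SE 0.13).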

How the data were processed

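The authors enriched polyadenylated RNA, sequenced it and deposited 1 table with raw read counts and FPKM per gene and library. The aligner, the counting tool and whether counting used strand are not given in the sources used here, and the submitters' processing notes name mm10. The deposited FPKM equalled the count over the gene length and the library total, to within a relative 1.9e-07. Columns named for a second hairpin were taken as shArf1-2, the remaining group of 3. Of 21795 identifiers in GENCODE M21, 514 had the table's start, so positions were looked up in GRCm38 by gene identifier.

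Counts were fitted with edgeR 4.0.16 (limma 3.58.1, R 4.3.3), with filterByExpr, TMM, glmQLFit with robust estimation and glmQLFTest. A fit of 6 against 3 libraries and a fit of 3 groups were made, with Benjamini-Hochberg adjustment over 12448 genes and a threshold of 0.05. FPKM is scaled to library totals and the tests to TMM. In simulated data, 200 of 12313 tested genes were changed by 1 on the log2 scale in either direction, with 1 fixed spread for all genes. The fit recovered 192 of the 200 with 8 false calls. Smaller changes, or a table in which 64.5% of genes pass, were not simulated. The simulation therefore gives no error rate for the calls here. CPM were computed from the deposited counts with library totals adjusted by TMM. Values per library are given for the 10 members of highest mean FPKM, the 10 that changed most in each direction, members that differed between hairpins, and paralogs of a member that moved by at least 1. Among regulators, the main escort genes and the 5 that changed most in each direction are named, and 1 gene of the rule is not reported here. The members and lists were chosen with earlier results of these data known. Alternatives were DESeq2 1.42.0, other scalings and filters, a replicate block, limma on log2 FPKM with a pseudocount of 1 or 0.1, a minimum fold change and leaving out each library.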

Additional observations from a re-analysis of the deposited data

Results flagged for a closer look

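For 3 Rab members the change with shArf1-2 differed from that with shArf1-1 by the test of the difference itself, out of 46 tested. Rab6a was lower with shArf1-2 by a log2 difference of -0.53 (SE 0.07, edgeR adjusted p = 4.41e-06), and the difference stayed between -0.61 and -0.48 when each library was left out. Rab3c differed by -0.23 (SE 0.06, edgeR adjusted p = 0.00412) and Rab11b by -0.23 (SE 0.07, edgeR adjusted p = 0.0189), and both lost the threshold without 1 library, as given above.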

How the results depend on the processing

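With a minimum log2 fold change of 1, the counts of Rab members past the threshold became 4 for Arf1-deficient against shlucif, 5 for shArf1-1, 4 for shArf1-2 and 0 between the hairpins, and that of regulators and effectors became 18. Leaving out each library gave 18 to 27, 23 to 28, 20 to 26, 2 to 4 and 80 to 89, and an Arf1 change between -1.26 and -1.17. No other alternative moved these counts by over 1.5 times. The replicate numbers did not pair the libraries, since deviations of same-numbered libraries correlated at 0.007 on average (-0.0822 to 0.0941 over 9 pairs), and a fit with the replicate number as a block gave 22, 26, 26, 3 and 84. Rabggta, which did not pass, turned to -0.003 with DESeq2, -0.002 with at least 10 counts in every library, -0.007 and -0.047 without shlucif library 2 and 3, and -0.047 without shArf1-2 library 1, within a range of -0.047 to 0.083 over the left-out libraries. The cause was not tested. Beside the losses given in the report, limma on both FPKM scales did not call Rab1a, Rab5a and the Rab3c difference between the hairpins. Rab7b, Rab29 and Rab20 have too few counts to be tested at 10 counts in every library, and their sizes rest on counts near 0.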
